A study of Mus musculus with 34 samples.

Results

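The subject is a set of 7 transcription factors that pattern the mouse nephron, followed through kidney development and kidney culture: Hnf4a, Hnf4g, Irx1, Irx2, Irx3, Pou3f3 and Tfap2b. They were taken by gene name from a bulk RNA-seq table of 23331 genes, and all 7 were found and passed the filter on low values. The table holds 34 samples in 17 groups of 2. Wild type kidneys, freshly taken, form 5 groups: E12.5 and E15.5, which are embryonic days, and P0, P9 and P45, which are days after birth. Explants, for which kidneys were taken at E12.5 and grown on, form 7 groups named by day of culture (D) and medium. They are D7 with 10% fetal bovine serum (FBS), D17 in stage-based medium v0, D3, D7, D13 and D19 in stage-based medium v1, and D19 in stage-based medium v2. The last 5 groups are assembloids, put together from kidney progenitors that were first expanded in culture (mKPA); all were grown in medium v2, to D3, D7, D13 and, in sets labelled r1 and r2, to D19. All explants and assembloids carried Hoxb7-venus, a transgene in which the Hoxb7 promoter, active in the ureteric bud lineage, drives a fluorescent protein, so genotype and culture cannot be told apart where a culture is set against a kidney. As the media are called stage-based, days within a culture may also differ in medium. Whether both samples of a group are separate animals or cultures is not stated. The p-values then measure only the spread between samples of a group, pooled over the 17 groups, which may be technical.

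The nephron forms from progenitors that condense, turn into an epithelial vesicle and elongate into a tube with a proximal-to-distal order of segments. Hnf4a and Hnf4g encode nuclear receptors of one family; in mouse kidney Hnf4a is known as a driver of proximal tubule identity. Irx1, Irx2 and Irx3 encode Iroquois homeodomain factors, known in the mouse for expression in the intermediate part of the forming nephron, from which the loop of Henle arises. Pou3f3 (Brn1) encodes a POU-domain factor needed in mice for the loop of Henle and the distal nephron. Tfap2b encodes an AP-2 factor needed in mice for the distal convoluted tubule, and it is also known from the neural crest.

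Values are a TMM-normalised signal (TMM is a scaling between libraries), deposited without read counts. The lowest value in a library is called 1 step here and stands for no detectable reads, since 69 genes sit at exactly 1 step in all 34 libraries. The column totals, divided by the step, imply depths of 15243962 to 28459391 steps in 33 libraries and 7772347 steps in the shallowest, D19 v2 explant replicate 2. Differences were tested with limma on log2(signal + 0.962) over 19264 genes, and a gene was called, and is said to rise, fall, be higher or be lower, where the Benjamini-Hochberg adjusted p was under 0.05 and the log2 change at least 1 in size. Log2 changes are given ± SE, on a scale that understates the change of low genes. The SE of a gene rests on a spread pooled over all 17 groups, so groups outside a comparison enter it.

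On mm39, the build of the table's coordinates, Hnf4a (ENSMUSG00000017950.17) lies on chromosome 2 at 163348728 to 163414831 on the plus strand and Hnf4g (ENSMUSG00000017688.16) on chromosome 3 at 3573084 to 3724861 on the plus strand. Irx1 (ENSMUSG00000060969.10) at 72106040 to 72111843 on the minus strand and Irx2 (ENSMUSG00000001504.11) at 72776939 to 72782318 on the plus strand are neighbours on chromosome 13. Irx3 (ENSMUSG00000031734.14) lies on chromosome 8 at 92525153 to 92528696 on the minus strand. Both Pou3f3 (ENSMUSG00000045515.5, 42734085 to 42742337) and Tfap2b (ENSMUSG00000025927.14, 19279138 to 19308801) are on the plus strand of chromosome 1.

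RefSeq promoter windows on GRCm38.p6, from 250 bases before to 50 bases after a transcript start, were found for 5 of the 7 members. Windows of Hnf4a, Irx2 and Tfap2b are printed 5′ to 3′, all on the plus strand: Hnf4a because its 2 annotated starts, 40298 bases apart, share 1 deposited value per gene, and Irx2 and Tfap2b as an intermediate and a distal factor that were called in opposite directions between D3 and D19 in v1 explants. Capitals mark matches on either strand to 5 motifs: the HNF4 core CAAAGTCC, the AP-2 motif GCCNNNGGC, the POU octamer ATGCAAAT, the IRX motif ACANNTGT and the TCF/LEF motif CTTTGA.
Hnf4a upstream start, chr2:163506607-163506906: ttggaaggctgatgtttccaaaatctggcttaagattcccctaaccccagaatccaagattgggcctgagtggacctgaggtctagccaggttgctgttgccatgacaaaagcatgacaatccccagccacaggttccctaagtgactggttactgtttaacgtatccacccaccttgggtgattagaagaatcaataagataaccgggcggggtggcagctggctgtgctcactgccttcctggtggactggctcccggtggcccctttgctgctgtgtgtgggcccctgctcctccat
Hnf4a downstream start, chr2:163546905-163547204: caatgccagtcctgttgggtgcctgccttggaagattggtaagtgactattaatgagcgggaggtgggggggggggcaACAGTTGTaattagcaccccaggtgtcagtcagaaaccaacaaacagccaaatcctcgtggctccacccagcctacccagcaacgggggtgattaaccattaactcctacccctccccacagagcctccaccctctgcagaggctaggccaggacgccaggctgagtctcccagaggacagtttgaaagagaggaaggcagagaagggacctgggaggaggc
Irx2, chr13:72628570-72628869: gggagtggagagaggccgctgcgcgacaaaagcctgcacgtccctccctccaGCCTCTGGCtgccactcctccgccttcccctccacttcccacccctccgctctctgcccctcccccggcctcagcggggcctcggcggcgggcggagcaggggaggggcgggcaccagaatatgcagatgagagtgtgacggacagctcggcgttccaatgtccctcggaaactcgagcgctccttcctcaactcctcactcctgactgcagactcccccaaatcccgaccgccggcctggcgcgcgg
Tfap2b, chr1:19211804-19212103: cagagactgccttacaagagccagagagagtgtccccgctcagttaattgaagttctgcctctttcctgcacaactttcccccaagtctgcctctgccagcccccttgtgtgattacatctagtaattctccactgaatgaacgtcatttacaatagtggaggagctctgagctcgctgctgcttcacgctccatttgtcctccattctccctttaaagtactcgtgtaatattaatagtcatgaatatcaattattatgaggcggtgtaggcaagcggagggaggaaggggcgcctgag

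The downstream Hnf4a window held 1 IRX match, a motif present in 7.38% of all 32851 windows of the same length, and the upstream window held no match to the 5 motifs. Irx2 held 1 AP-2 match, a motif in 16.6% of all windows. None of the 5 motifs was found in the windows of Tfap2b, Pou3f3 or Irx3. The other shares over all windows were 1.42% for the HNF4 core, 1.74% for the octamer and 16.0% for TCF/LEF; the AP-2 and IRX motifs read the same on both strands, and no 2 matches overlapped. These are matches of letters only.

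Across the 17 groups the members spanned very different ranges. Hnf4a covered the widest, from a mean signal of 0.107 in E12.5 kidneys to 718 in P45 kidneys, and Hnf4g ran from 0.0508 to 8.88 between the same groups. Irx1 and Irx2 were also lowest at E12.5, with means of 0.226 and 0.346, and both were highest in P9 kidneys at 97.0 and 48.1. Pou3f3 varied least, 7.40-fold between 41.7 at E12.5 and 308.5 at P9. The other two had their lowest level in assembloids: Irx3 at 2.72 on D3 and Tfap2b at 4.31 on D7. Tfap2b was highest in P9 kidneys at 189, whereas Irx3 had its highest mean, 46.6, in D19 v1 explants. Neighbouring groups in these orders often could not be separated. Their samples overlapped for 13 of 16 neighbouring pairs for Irx3, 10 for Pou3f3, 9 for Irx1, 8 for Hnf4a and Tfap2b and 7 for Hnf4g and Irx2.

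**Figure D1:**
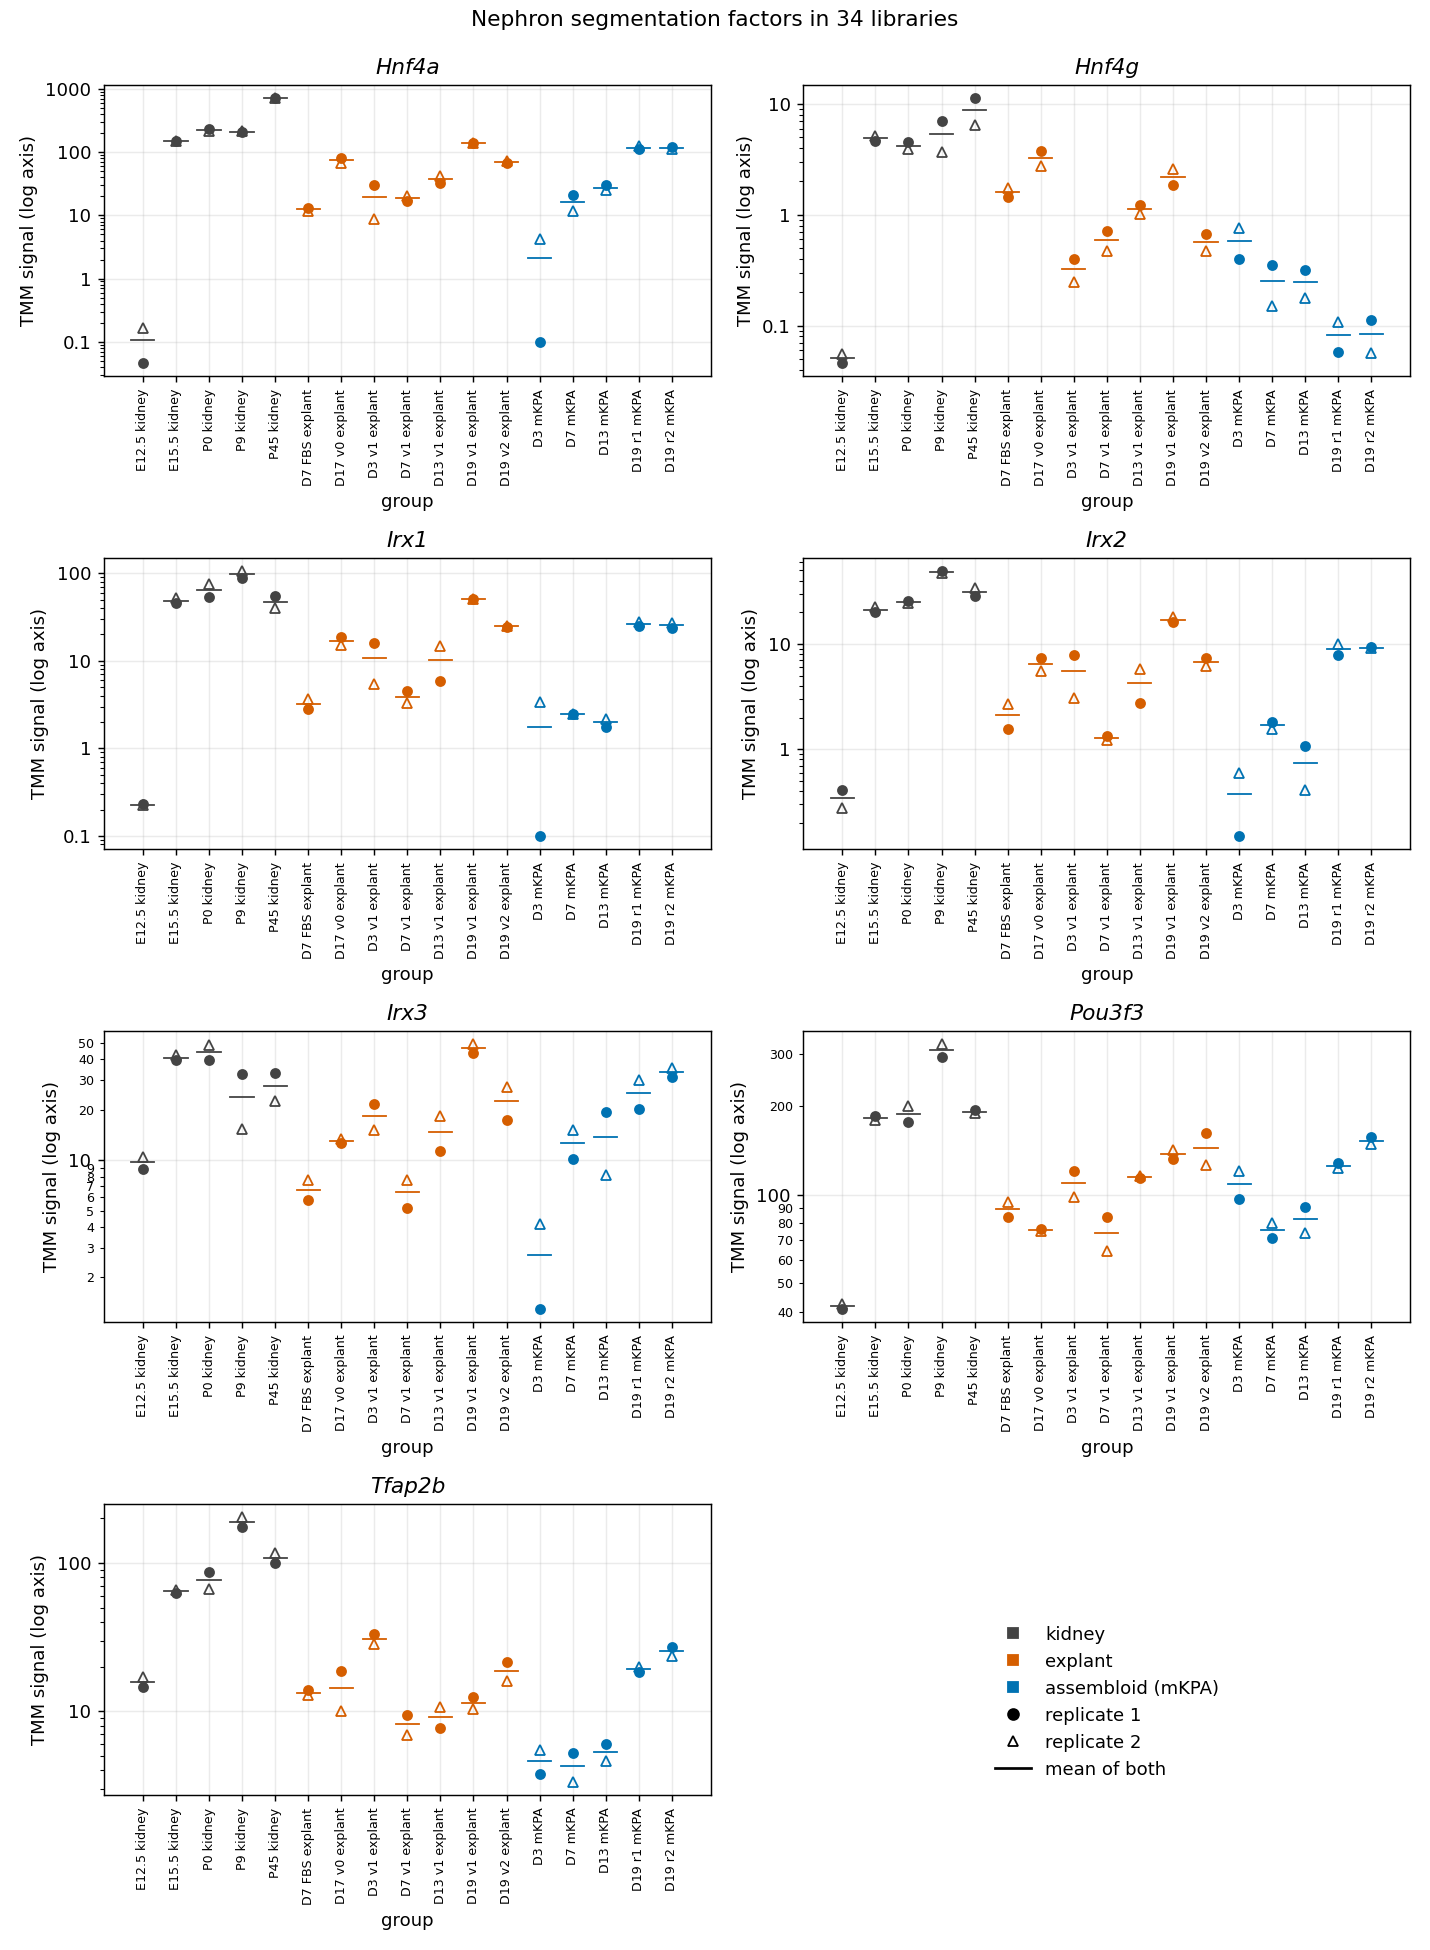
TMM signal of each member (log axis) in both samples of the 17 groups, with the group mean as a bar. Hnf4a, Hnf4g, Irx1 and Irx2 are near the bottom of their panels at E12.5, while Pou3f3 spans 7.40-fold over all group means and Hnf4g is low in the D19 assembloids.

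In fresh kidneys all 7 members rose between E12.5 and E15.5, against 9.62% of all genes called, and the nuclear receptors came from near or below detection. Hnf4a was at 1 and 3 steps (signals 0.0459 and 0.167) in the E12.5 kidneys and at 151.1 and 153.5 in the E15.5 kidneys. The ratio of signals was 1513, with a counting interval of 590.8 to 5556, and the fitted change was 7.17 ± 0.51 (limma adjusted p = 2.88e-09). Hnf4g was at 1 step in both E12.5 kidneys and at 4.65 and 5.13 at E15.5, at least 32.1-fold higher against a floor of 3 steps per library (log2 change 2.53 ± 0.24). In both receptors the stages were far apart and the E15.5 samples close together. Intervals and floors cover counting error only, and floors that of the low group alone. These ratios would be larger if the table adds 1 read to every value, which the sources used here do not say.

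Irx1 rose from 0.230 and 0.223 at E12.5 to 45.2 and 52.3 at E15.5, a ratio of 216.1 (114 to 473; log2 change 5.38 ± 0.48). Irx2, its neighbour on chromosome 13, rose from 0.414 and 0.278 to 19.98 and 22.34 (ratio 60.2, 35.7 to 111; 4.08 ± 0.29). The third Iroquois gene was already present at E12.5: Irx3 gave 8.913 and 10.52 there and 39.5 and 42.3 at E15.5 (1.97 ± 0.41). The distal factors were present at E12.5 too, Pou3f3 with 40.9 and 42.4 rising to 184 and 179 (2.10 ± 0.13) and Tfap2b with 14.7 and 16.9 rising to 62.7 and 66.0 (1.96 ± 0.23). For all 7 genes the 2 stages did not overlap. The share of all genes without overlap was not computed, here or in the comparisons below. In bulk tissue fewer cells of a type and less RNA per cell cannot be told apart. Between P0 and E12.5, which shares the E12.5 samples, 7 of 7 were again higher, against 19.5% of all genes, with log2 changes of 2.07 ± 0.41 for Irx3 to 7.73 ± 0.51 for Hnf4a.

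Markers of other cells moved at the same step. The summed signal of 14 neuron and neural crest genes was 280.9 and 334.7 in the E12.5 kidneys and 27.5 and 22.5 at E15.5, where Dbh was at 1 step in both samples, and 12 of the 14 fell. Tfap2b is also a neural crest gene; the part of these cells in the E12.5 levels of Tfap2b, Pou3f3 and Irx3 was not tested. Segment genes rose with the members: 19 of 20 proximal tubule genes (median log2 change 3.77, with the phosphate transporter gene Slc34a1 at 7.14 ± 0.26), 9 of 12 loop of Henle genes (median 2.73, with the cotransporter gene Slc12a1 at 7.04 ± 0.48) and 6 of 12 genes of the distal convoluted and connecting tubule (median 0.97), beside a median of 0 over all genes. Of 7 liver and gut genes in the table, 5 were tested and 3 rose (Afp, Serpina1a and Vil1). The summed signal of the 7 went from 1.10 and 1.66 to 83.6 and 94.8. In assembloids, put together from kidney progenitors, this sum was 1.45 and 2.37 on D3 and 36.5 to 46.1 on D19. In v1 explants it was 10.0 and 4.82 on D3 and 47.2 and 40.5 on D19. The part of liver or gut cells in the rise of Hnf4a, which liver and gut also express, was not tested.

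From E15.5 to P0 0 of 7 were called, against 5.06% of all genes, and 0 of 7 had an unadjusted p under 0.05; the log2 changes lay between -0.18 ± 0.24 for Hnf4g and 0.56 ± 0.51 for Hnf4a. From P0 to P9 Tfap2b alone among the 7 rose, from 86.6 and 67.1 to 174 and 204 (1.30 ± 0.23, adjusted p = 4.12e-05), against 11.7% of all genes called. Pou3f3 went from 176 and 200.3 to 293 and 324, a log2 change of 0.71 ± 0.13 that passed the p threshold but not the fold threshold. Irx2 likewise had 25.7 and 24.4 at P0 and 49.4 and 46.8 at P9 (0.91 ± 0.29). Irx3 had 39.8 and 48.4 at P0 and 32.6 and 15.3 at P9 (-0.94 ± 0.41), and its P9 samples differed 2.13-fold; without P9 replicate 1 it was called lower (-1.46).

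From P9 to P45 Hnf4a rose, from 209 and 216 to 715 and 720.1 (1.75 ± 0.51, adjusted p = 0.00949), 1 of 7 against 14.6% of all genes. It was also the single member higher at P45 than at P0 (1.67 ± 0.51), in a comparison that shares the P45 samples and in which 27.5% of all genes were called. Both calls of Hnf4a missed the p threshold with a 4 times smaller pseudocount (adjusted p = 0.0599 and 0.0570) and with quantile normalization (0.0738 and 0.0728). The pooled spread behind these p-values also holds groups outside the comparison, such as the D3 assembloids, at 0.0999 and 4.20 for Hnf4a. Their part in the lost calls was not tested. Hnf4g changed by 0.66 ± 0.24 from P9 to P45, and it was called higher without P9 replicate 1 (1.05) or without P45 replicate 2 (1.01, and 1.24 against P0). Of the distal and intermediate factors, 4 were at lower values at P45 than at P9 without reaching both thresholds, among them Tfap2b at 100.3 and 116 (-0.80 ± 0.23), Pou3f3 at 193 and 189 (-0.69 ± 0.13) and Irx2 at 28.4 and 34.3 (-0.61 ± 0.29). Irx1 changed by -1.03 ± 0.48 and Irx3 by 0.27 ± 0.41. With columns rescaled to equal totals, Tfap2b, Pou3f3, Irx1 and Irx2 were called lower at P45 than at P9, with log2 changes of -1.22, -1.11, -1.44 and -1.02, and Hnf4a missed the p threshold against P0 (1.02, adjusted p = 0.0927). That scaling also moved the median of all genes to -0.33 for P45 against P9 and -0.49 for P45 against P0, so these values are to be read against those medians. All genes split into 1496 called higher and 1317 called lower at P45 than at P9 as deposited, and into 743 and 2472 with equal totals; against P0 the splits were 2635 and 2662, and 1223 and 5269. From P0 to P9 the split went from 1115 and 1144 to 744 and 1719, the median to -0.19, and Irx3 was then called lower (-1.15). From P9 to P45 all 20 proximal tubule genes rose (median 2.21) and 5 of 12 loop of Henle genes did, with Egf at 5.09 ± 0.23, while 4 of the 22 other nephron transcription factors rose and 5 fell (among them Wt1, -2.26 ± 0.11).

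**Figure D2:**
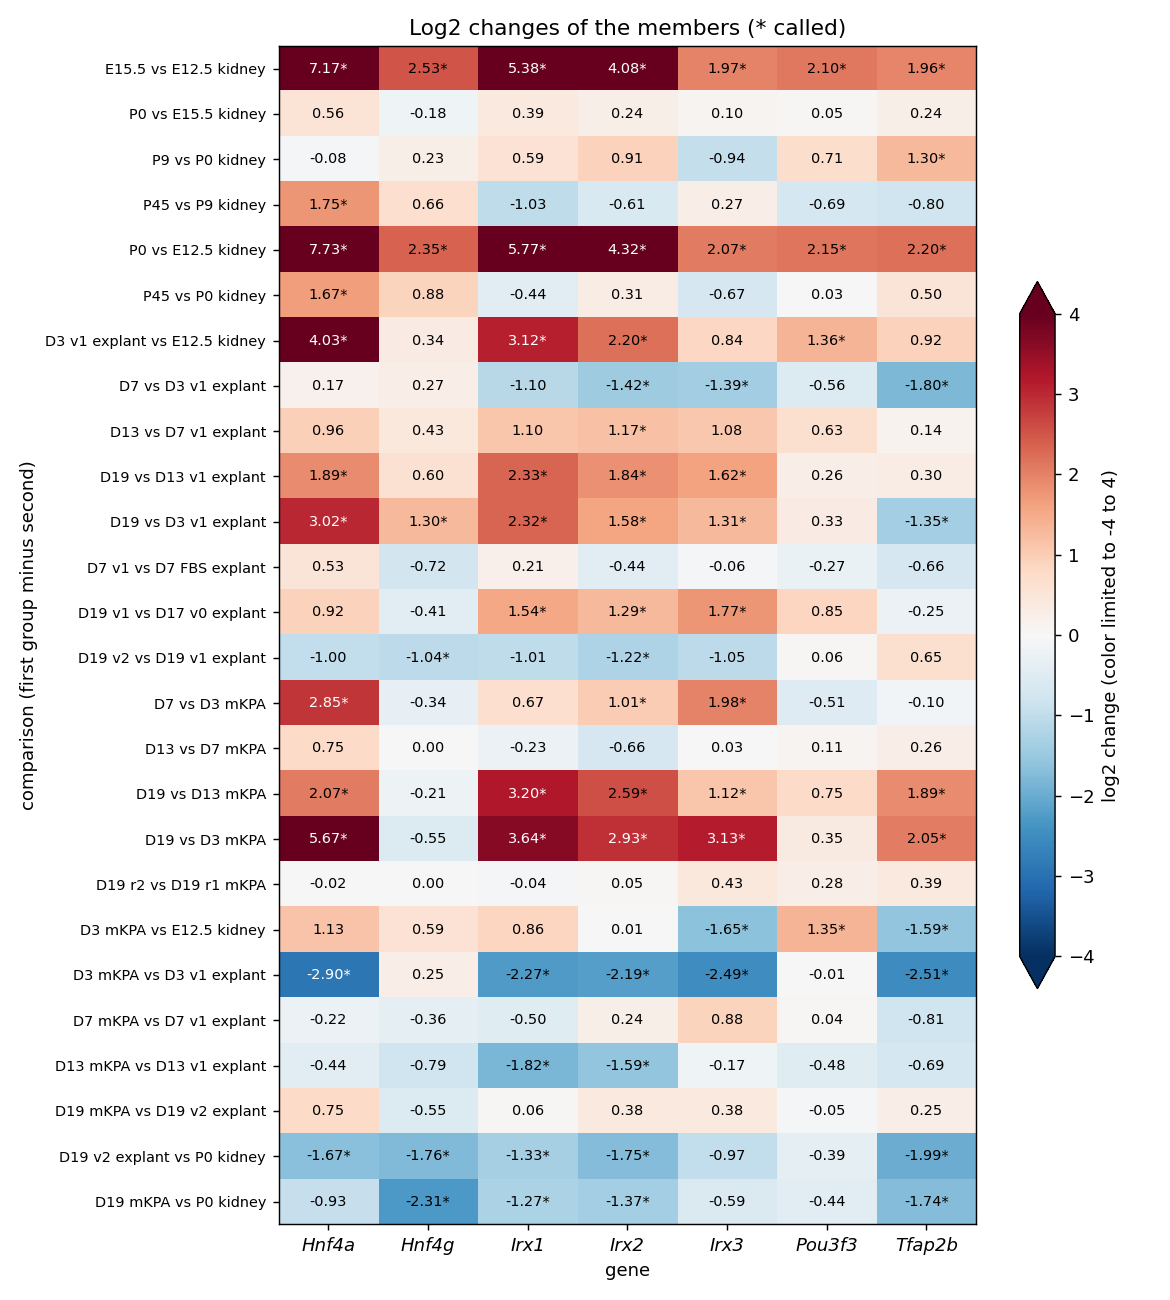
Log2 change of each member in 26 comparisons (rows, first group minus second), with an asterisk where both thresholds were passed. All 7 were called between E12.5 and E15.5 and none between E15.5 and P0, and in cultures Tfap2b runs opposite to Irx1 to Irx3 between D3 and D19 in v1 explants.

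After 3 days in medium v1, explants held more of 4 members than the E12.5 kidney they start from. Hnf4a rose to 30.4 and 8.75 (4.03 ± 0.51), Irx1 to 15.9 and 5.41 (3.12 ± 0.48), Irx2 to 7.88 and 3.10 (2.20 ± 0.29) and Pou3f3 to 120 and 98.3 (1.36 ± 0.13), against 8.48% of all genes called. Replicate 1 was the higher of the pair for each of these, by 3.48-fold for Hnf4a and 2.93-fold for Irx1, yet both samples stood above both E12.5 kidneys. Without replicate 1 the changes of Hnf4a and Irx1 were 3.19 and 2.42, and without replicate 2 they were 4.88 and 3.82. Over the same comparison 8 of 14 neuron and neural crest genes were lower (median -2.16; summed signal 52.7 and 73.9 at D3 against 280.9 and 334.7), and 8 of 20 proximal tubule and 5 of 12 loop of Henle genes were higher; the part of these cells in the members' changes was not tested. Tfap2b, at 33.1 and 28.4, had a log2 change of 0.92 ± 0.23, just under the fold threshold. Hnf4g was at 8 and 5 steps and was not called (0.34 ± 0.24). Its mean was 2.12-fold above the floor of 3 steps per library at E12.5, a value without the counting error of the D3 samples.

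Between D3 and D7 in v1, 3 members fell, against 4.70% of all genes. Tfap2b fell to 9.41 and 6.98 (-1.80 ± 0.23, adjusted p = 1.62e-06), Irx2 to 1.32 and 1.22 (-1.42 ± 0.29) and Irx3 from 21.7 and 15.1 to 5.20 and 7.66 (-1.39 ± 0.41). For all 3 genes both D7 samples lay under both D3 samples, and the share of all genes for which this holds was not computed. Without D3 replicate 1 the calls of Irx2 (-0.86) and Irx3 (-1.14, adjusted p = 0.139) were lost, while without D3 replicate 2 Irx1 was called lower as well (-1.80); the call of Tfap2b held without any of the 4 libraries (-1.99 to -1.61), and that of Irx3 was also lost without D7 replicate 1 (-1.14). Early nephron genes fell in the same interval, 8 of 14 (median -1.06), among them the Notch target Hey1 (-1.54 ± 0.15) and the Notch ligand gene Dll1 (-1.48 ± 0.34), and so did Lhx1 (-2.98 ± 0.43), a homeobox gene of the forming nephron. Hnf4a, at 16.98 and 20.56 on D7, stayed between its 2 D3 values (0.17 ± 0.51).

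From D7 to D13 Irx2 was the 1 member called (1.17 ± 0.29), against 4.40% of all genes. It went to 2.76 and 5.81, and without D13 replicate 2 the call was lost (0.74). Replicate 2 held 2.51-fold more Irx1 and 2.10-fold more Irx2 than replicate 1, and its summed neuron and neural crest signal was 358.9 against 134.3; the part of these cells was not tested. From D13 to D19 Hnf4a rose to 141 and 141 (1.89 ± 0.51), Irx1 to 51.04 and 50.75 (2.33 ± 0.48), Irx2 to 16.1 and 18.0 (1.84 ± 0.29) and Irx3 to 43.7 and 49.5 (1.62 ± 0.41), 4 of 7 against 5.30% of all genes. The 2 D19 explants were close to each other in these genes and above both D13 samples. In the same step 16 of 20 proximal tubule genes rose (median 1.52) and 10 of 14 neuron and neural crest genes fell (median -2.08), from summed signals of 134.3 and 358.9 to 45.3 and 37.0; their part was not tested. The call of Hnf4a was lost without D13 replicate 1 or without either D19 sample (adjusted p = 0.0895, 0.0657 and 0.0677) and with the smaller pseudocount (0.0764), and that of Irx3 without D13 replicate 1 (1.30) or D19 replicate 2 (1.54). For Irx1 the change was 1.73 without D13 replicate 1 and 2.93 without D13 replicate 2.

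Over the whole of the v1 culture, D3 to D19, 5 members rose and 1 fell, against 16.4% of all genes. Hnf4g rose from 0.399 and 0.246 to 1.84 and 2.59 (1.30 ± 0.24), beside Hnf4a (3.02 ± 0.51), Irx1 (2.32 ± 0.48), Irx2 (1.58 ± 0.29) and Irx3 (1.31 ± 0.41). Irx3 was not called without D3 replicate 2 (1.07) or D19 replicate 2 (1.23). The size of 3 others moved with the D3 sample left out: without D3 replicate 1 Hnf4a, Irx1 and Irx2 changed by 3.87, 3.03 and 2.15, and without D3 replicate 2 by 2.18, 1.62 and 1.02. Tfap2b ended at 12.51 and 10.40, below its D3 level (-1.35 ± 0.23, adjusted p = 1.57e-05). Its D7, D13 and D19 means were 8.19, 9.17 and 11.5, and 18.6 in v2 at D19.

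Media were compared where the design allows. At D7, 0 of 7 members were called between v1 and FBS explants, against 11.3% of all genes; 3 had an unadjusted p under 0.05 and 2 an adjusted p under 0.05: Hnf4g, at 0.709 and 0.476 in v1 and 1.44 and 1.75 in FBS (-0.72 ± 0.24), and Tfap2b, at 13.83 and 12.95 in FBS (-0.66 ± 0.23). Hnf4g was called lower in v1 with a 4 times smaller pseudocount (-1.15). D19 v1 explants had higher Irx1 (1.54 ± 0.48), Irx2 (1.29 ± 0.29) and Irx3 (1.77 ± 0.41) than D17 v0 explants, 3 of 7 against 5.45% of all genes, and here day and medium cannot be told apart. In v0 the samples gave 18.6 and 15.2 for Irx1, 7.40 and 5.50 for Irx2 and 12.7 and 13.3 for Irx3, all under the v1 samples. The call of Irx1 was lost when any of the 4 libraries was left out (adjusted p = 0.0657 to 0.110) and with the smaller pseudocount (0.107). D17 v0 explants had the most Hnf4g of any culture, at 3.76 and 2.75.

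At D19, v2 explants were lower than v1 explants in Hnf4g, at 0.666 and 0.475 (-1.04 ± 0.24), and Irx2, at 7.36 and 6.18 (-1.22 ± 0.29), 2 of 7 against 2.84% of all genes. Irx1, at 24.4 and 25.3 in v2, and Hnf4a, at 67.2 and 72.8, had log2 changes of -1.01 ± 0.48 and -1.0 ± 0.51 with adjusted p of 0.229 and 0.281. In v1 the samples were at 51.0 and 50.8 for Irx1 and at 140.7 and 141.1 for Hnf4a. The pooled SE also holds the D3 assembloids, at 0.0999 and 3.395 for Irx1 and 0.0999 and 4.20 for Hnf4a. Their part in these p-values was not tested. The calls of Hnf4g and Irx2 were lost without D19 v1 replicate 2 (-0.88 and -1.14) or without D19 v2 replicate 2 (-0.95 and -1.11), the shallowest library, where Hnf4g rests on 4 steps, and with a 4 times larger pseudocount (-0.45 and -0.98). Proximal tubule genes were lower in v2 as well, 9 of 20 (median -0.91), with Slc34a1 at -3.11 ± 0.26.

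Assembloids began with less of most members than explants of the same day. At D3 5 of 7 were lower than in v1 explants, against 7.68% of all genes: Tfap2b at 3.80 and 5.50 (-2.51 ± 0.23), Irx3 at 1.30 and 4.15 (-2.49 ± 0.41), Irx2 at 0.150 and 0.593 (-2.19 ± 0.29), Hnf4a at 0.0999 and 4.20 (-2.90 ± 0.51) and Irx1 at 0.0999 and 3.40 (-2.27 ± 0.48). The medium version differs between these groups. Pou3f3 gave 96.6 and 120.5, a difference of -0.01 ± 0.13 with a 95% interval of -0.28 to 0.26. The D3 assembloids themselves disagreed: Hnf4a was at 2 steps in replicate 1 and 78 in replicate 2, Irx1 at 2 and 63, and Irx2 at 3 and 11. The sizes of the differences moved with the library: without assembloid replicate 1 they were -1.76 for Hnf4a, -1.25 for Irx1 and -1.90 for Irx3, and without assembloid replicate 2 they were -4.04, -3.28 and -3.08. Without explant replicate 1 Hnf4a and Irx1 differed by -2.05 and -1.57, and without explant replicate 2 by -3.74 and -2.97; all these values were called. Their summed proximal tubule signals were 25.1 and 28.8 and their loop of Henle signals 32.2 and 34.6, close to each other in both lists. Against the D3 v1 explants 7 of 12 loop of Henle, 6 of 20 proximal tubule and 7 of 12 podocyte genes were lower, and 5 of 14 collecting duct genes were higher, with summed collecting duct signals of 553 and 612 in assembloids and 247 and 248 in explants; their part in the members' differences was not tested.

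Set against E12.5 kidneys, D3 assembloids had more Pou3f3 (1.35 ± 0.13) and less Tfap2b (-1.59 ± 0.23) and Irx3 (-1.65 ± 0.41), 3 of 7 against 12.2% of all genes. Without D3 assembloid replicate 1 the call of Irx3 was lost (-1.06), and Hnf4a (2.28) and Irx1 (1.87) were called higher; without replicate 2 these genes were at -2.24, -0.01 and -0.16. The neuron and neural crest signal was 40.3 and 25.1 in these assembloids, with Hand2 and Dbh at 1 step in both, beside 280.9 and 334.7 in the E12.5 kidneys, and 11 of 14 of the genes were lower.

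In assembloids, between D3 and D7, Hnf4a rose to 21.1 and 11.9 (2.85 ± 0.51), Irx3 to 10.2 and 15.2 (1.98 ± 0.41) and Irx2 to 1.81 and 1.55 (1.01 ± 0.29), 3 of 7 against 4.97% of all genes. Both D7 samples were above both D3 samples in each. The call of Irx2 was lost without D3 replicate 1 (0.76) and without either D7 sample (0.94 and 1.08). Without D3 replicate 1 the changes of Hnf4a and Irx3 were 1.71 and 1.39, and without D3 replicate 2 they were 3.99 and 2.57, where Irx1 was called as well (1.69). Early nephron genes rose alongside, 5 of 14, with Papss2 at 2.44 ± 0.15 and Dll1 at 1.46 ± 0.34. From D7 to D13 0 of 7 were called, against 2.67% of all genes, and 1 of 7 had an unadjusted p under 0.05; Irx1 stood at 2.47 and 2.46 and then at 1.76 and 2.19.

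The late rise came between D13 and D19, when 5 of 7 rose against 5.95% of all genes. The 4 D19 samples, taken as the mean of sets r1 and r2, gave 24.0 to 27.7 for Irx1 (3.20 ± 0.41), 7.83 to 10.1 for Irx2 (2.59 ± 0.25), 112 to 126 for Hnf4a (2.07 ± 0.44), 18.6 to 27.2 for Tfap2b (1.89 ± 0.20) and 20.3 to 35.6 for Irx3 (1.12 ± 0.35). Each D19 sample was above both D13 samples in these 5 genes. The call of Irx3 was lost with set r1 alone (0.91), without D13 replicate 2 (0.54) and without r1 replicate 2 (0.98); the D13 samples were at 19.5 and 8.21. From D3 to D19 the same 5 genes, Hnf4a, Irx1, Irx2, Irx3 and Tfap2b, rose, by 2.05 ± 0.20 for Tfap2b to 5.67 ± 0.44 for Hnf4a, against 17.4% of all genes. Without D3 replicate 1 the rises were 4.52 for Hnf4a, 2.62 for Irx1 and 2.54 for Irx3, and without D3 replicate 2 they were 6.81, 4.66 and 3.72. Loop of Henle genes rose in 9 of 12 (median 2.85; Slc12a1 6.21 ± 0.42, Kcnj1 4.02 ± 0.26) and proximal tubule genes in 18 of 20 (median 3.63). Between sets r2 and r1 0 of 7 members were called, against 0.166% of all genes, and 1 member, Pou3f3, had an unadjusted p under 0.05 (0.28 ± 0.13).

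Hnf4g was at few steps throughout the assembloid series, though its D3 mean, 0.577, was not under that of D3 v1 explants, 0.322. It was at 8 and 14 steps on D3, 8 and 3 on D7, 6 and 3 on D13 and 1 or 2 in each of the 4 D19 samples. The ratio of D19 to D3 signal was 0.147 (counting interval 0.0487 to 0.373), and the fitted change, -0.55 ± 0.21 (adjusted p = 0.0294), did not reach the fold threshold; with a 4 times smaller pseudocount it did (-1.31). Per kilobase of exon, the signal of Hnf4a in the D19 assembloids was 587 and 637 times that of Hnf4g in the libraries with 2 steps of Hnf4g (counting intervals 162 to 4850 and 176 to 5261). In the libraries with 1 step it was at least 353-fold and 369-fold higher, against the floor of 3 steps per library. These bounds follow another rule than the intervals and cannot be compared with their lower ends. In kidneys from E15.5 on the ratio was 16.3 to 60.4 times, and in D19 explants 29.7 to 83.5 times. Earlier assembloids had ratios of 0.136 and 3.035 on D3, 32.5 and 43.2 on D7 and 50.7 and 77.0 on D13. D19 assembloids and D19 v2 explants, grown in the same medium to the same day, had Hnf4a signals of 112 to 126 and of 67.2 and 72.8. Of the 7 members 0 were called between them, against 5.44% of all genes, and 1, Hnf4g, had an unadjusted p under 0.05. For Hnf4g the ratio there was 0.135 (0.0448 to 0.340) and the fitted change -0.55 ± 0.21 (adjusted p = 0.0535), called with the smaller pseudocount (-1.32). These ratios and intervals of Hnf4g count each step as 1 read. Above, 1 step was taken to stand for no detectable reads. On that reading each library is counted 1 read too high, and at 1 or 2 steps the printed ratios and intervals do not hold.

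**Figure D3:**
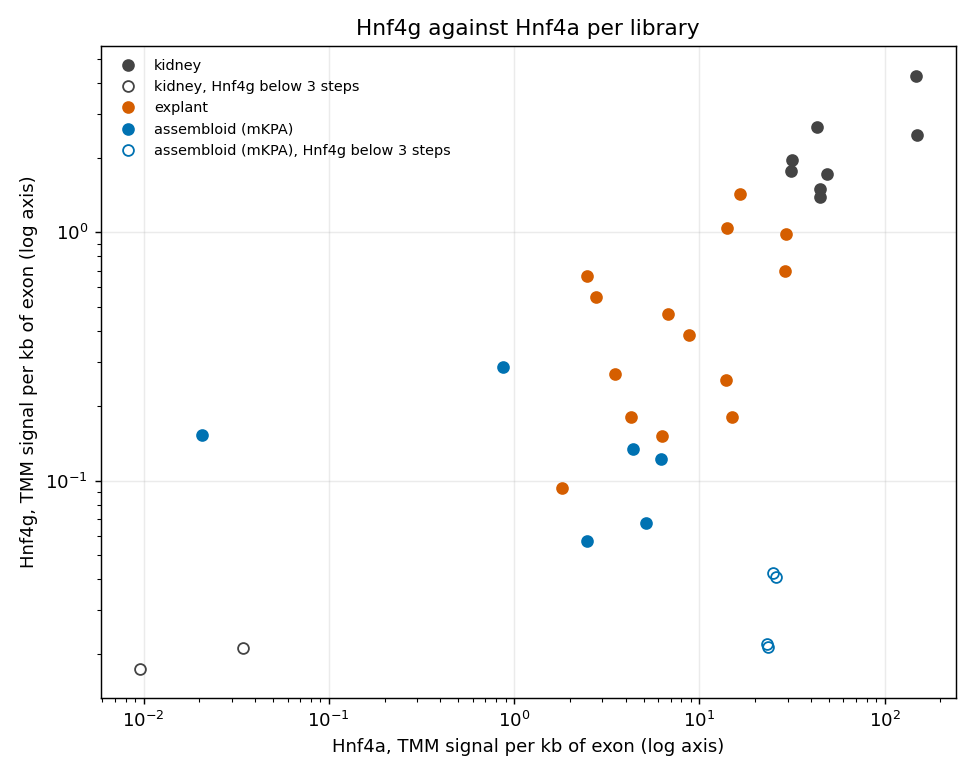
Hnf4g against Hnf4a as TMM signal per kilobase of exon (both axes log) in each of the 34 libraries, open where Hnf4g is below 3 steps. The 4 D19 assembloids sit at Hnf4a levels of 23.2 to 26.0 with Hnf4g at 0.0213 to 0.0425, below explants and kidneys of similar Hnf4a.

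On D7 and D13 the assembloids were again set against v1 explants, with the medium version different. At D7 0 of 7 members were called, against 5.95% of all genes, and 2 had an unadjusted p under 0.05. Tfap2b, at 5.25 and 3.36 against 9.41 and 6.98, had an adjusted p of 0.00861 with a difference of -0.81 ± 0.23. It passed both thresholds without D7 assembloid replicate 1 (-1.07) or D7 explant replicate 2 (-1.0). At D13 Irx1 (-1.82 ± 0.48) and Irx2 (-1.59 ± 0.29) were lower in assembloids, 2 of 7 against 7.60% of all genes, and the call of Irx1 was lost without D13 explant replicate 2 (-1.22) or D13 assembloid replicate 1 (-1.72, adjusted p = 0.0546); without D13 explant replicate 1 the difference was -2.42. At that day 11 of 14 neuron and neural crest genes were lower in assembloids too (47.7 and 49.1 against 134.3 and 358.9), and so were 6 of 12 loop of Henle genes, with Slc12a1 at -3.17 ± 0.48.

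The change from D3 to D19 differed between the cultures for 5 of 7 members, tested as the difference of changes, against 9.52% of all genes. Tfap2b had the largest difference, 3.41 ± 0.30 (adjusted p = 4.36e-09); it rose in assembloids and fell in v1 explants. Hnf4g differed in the other direction (-1.85 ± 0.32). Hnf4a (2.64 ± 0.68), Irx3 (1.81 ± 0.54) and Irx2 (1.35 ± 0.38) rose in both cultures and more in assembloids, from lower D3 levels. Yet their D19 means in assembloids, sets r1 and r2, stayed under those in v1 explants. Means were 118.8 and 117.3 against 140.9 for Hnf4a, 25.13 and 33.59 against 46.56 for Irx3, and 8.967 and 9.244 against 17.03 for Irx2. For Tfap2b they were above, at 19.16 and 25.46 against 11.45. These D19 groups were not tested against each other. The calls of Tfap2b (3.19 to 3.63) and Hnf4g (-2.02 to -1.68) held when any 1 of the 10 libraries was left out. That of Hnf4a was lost without D3 explant replicate 1 (1.80, adjusted p = 0.0725) and was 3.49 without D3 explant replicate 2, 1.50 without D3 assembloid replicate 1 and 3.78 without D3 assembloid replicate 2. That of Irx2 was lost without D3 explant replicate 1 (0.79) or D3 assembloid replicate 1 (1.11). That of Irx3 was lost without D3 explant replicate 1 (1.57), D19 explant replicate 1 (1.73) or D3 assembloid replicate 1 (1.23), with set r1 alone (1.60) and with quantile normalization (1.57), and was 2.40 without D3 assembloid replicate 2. Irx1, at 1.32 ± 0.63, was called without D3 explant replicate 2 (2.02) or D3 assembloid replicate 2 (2.34). With a 4 times larger pseudocount Hnf4g (-0.71), Irx2 (0.41) and Irx3 (1.15) were no longer called. The difference of Pou3f3 was 0.02 ± 0.17, with a 95% interval of -0.33 to 0.37. Medium v2 was used for one culture and v1 for the other, so culture and medium cannot be told apart.

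**Figure D4:**
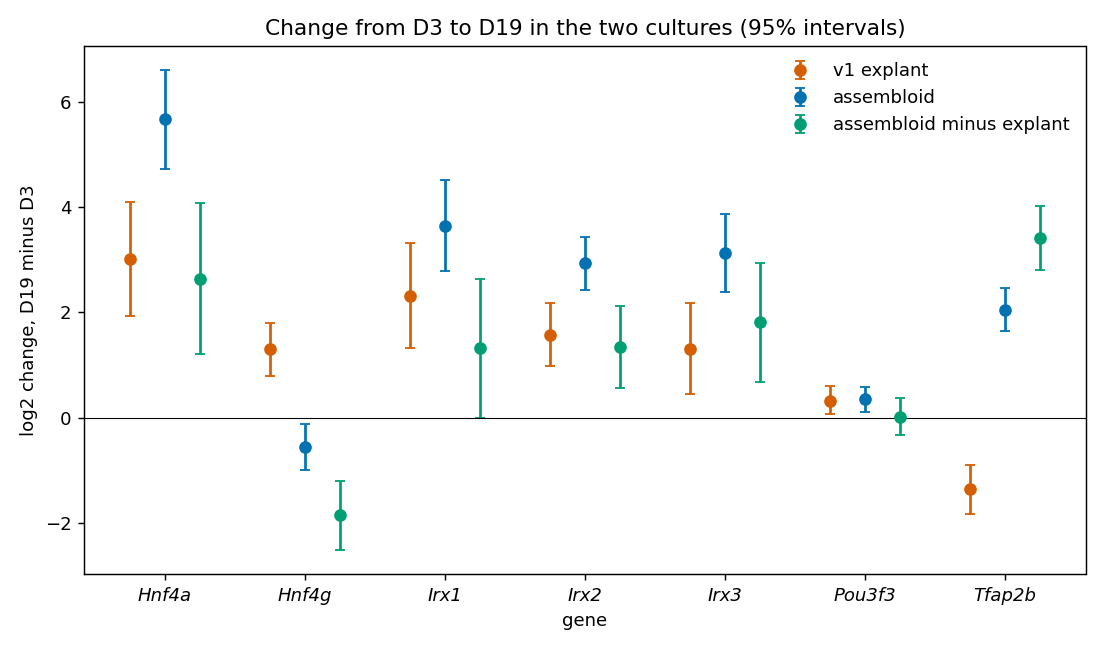
Log2 change from D3 to D19 for each member in v1 explants, in assembloids (4 D19 samples) and as the difference between the cultures, with 95% intervals. Tfap2b lies at -1.35 in explants and 2.05 in assembloids, and Pou3f3 at 0.33 and 0.35.

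Against the P0 kidney, D19 v2 explants were lower in 5 of 7 members and D19 assembloids in 4, while 16.2% and 12.4% of all genes were called; both comparisons share the P0 samples. Segment genes were lower as well, 20 of 20 and 16 of 20 of the proximal tubule (medians -2.95 and -2.24) and 10 and 9 of 12 of the loop of Henle (medians -2.53 and -2.13); their part in the members' gaps was not tested. The gap in Tfap2b was -1.99 ± 0.23 for explants, at 21.3 and 15.9, and -1.74 ± 0.20 for assembloids. For Irx2 the gaps were -1.75 ± 0.29 and -1.37 ± 0.25, and for Irx1 -1.33 ± 0.48 and -1.27 ± 0.41. The gap in Hnf4g was -1.76 ± 0.24 and -2.31 ± 0.21, and in signal assembloids held 0.0197 of the P0 level (0.00713 to 0.0437). Hnf4a was called lower in explants (-1.67 ± 0.51) and not in assembloids (-0.93 ± 0.44, adjusted p = 0.102); the difference between the cultures was 0.75 ± 0.44 (adjusted p = 0.240). Calls of Irx1 in both and of Hnf4a in explants were lost with the smaller pseudocount; that of Irx1 was also lost without P0 replicate 2, in explants -1.09 and in assembloids -1.03. In explants Irx1 was further lost without either D19 sample and Hnf4a without P0 replicate 1 (-1.61) or D19 replicate 1 (-1.62), while Irx3 was called lower without D19 replicate 2 (-1.28).

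The wider set of nephron factors and the members' relatives were described in the same fit. Of 22 other nephron transcription factors, 14 rose and 0 fell from E12.5 to E15.5 (median 1.50). From D3 to D19 9 rose and 1 fell in v1 explants and 10 rose and 1 fell in assembloids. Of 8 relatives of the members in the table (other IRX, POU3F and TFAP2 genes) 7 were tested. In E15.5 against E12.5 kidneys Irx5 rose (1.47 ± 0.29), Pou3f1 fell (-1.36 ± 0.22) and the list's median was -0.52. From D3 to D19 Irx5 rose in explants (1.77 ± 0.29) and in assembloids (1.81 ± 0.25), and Pou3f1 fell in both (-3.05 ± 0.22 and -2.22 ± 0.19). At D19 Irx5 was lower in v2 than in v1 explants (-1.10 ± 0.29), as Irx2 was.

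Genes with the most similar pattern were ranked by Pearson correlation over the 17 group means among 12832 genes, as a description; the groups share libraries and a time axis. Closest to Hnf4a were Ggt1 (0.985), Pdzk1 (0.982) and Clrn3 (0.981), the first encoding a proximal tubule brush border enzyme and the second a scaffold of that border. Irx1 and Irx2 were nearest to each other (0.977), with Kcnj5 (0.943) also among the closest for Irx1 and Sim2 (0.973) for Irx2. Irx3 was less closely matched: Kcnj5 (0.876), Cldn1 (0.849) and Irx1 (0.830). Hnf4g had Fut9 (0.942), Actn4 (0.905) and Cyp2j5 (0.894) ahead of its relative Hnf4a, with which it correlated at 0.656. Tfap2b was closest to Adgrf5 (0.960), Arhgap18 (0.950) and Emx1 (0.944), and Pou3f3 to Tfcp2l1 (0.937), Sgpp2 (0.929) and Pantr1 (0.915).

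Some members overlap other transcripts, and reads of overlapping genes cannot be told apart here. No source used here states the strand setting of the counting, and on the same strand no such setting would separate them. Pantr1 lies opposite Pou3f3 with 501 shared bases, and Gm20646 covers all 8253 bases of Pou3f3 on the same strand. The part of shared reads in the correlation of Pantr1 with Pou3f3 (0.915) was not tested. The values of Pou3f3 were whole multiples of a step, within 0.03 step, in 7 of 34 libraries only, whereas those of the other members were in 33 or 34. Signals of Pantr1 were 1.78 to 19.8 and of Gm20646 0.0405 to 0.952, against 40.9 to 324 for Pou3f3. Hnf4aos overlaps Hnf4a over 34915 bases on the opposite strand at signals of 0.0405 to 9.71, and Irx3os overlaps Irx3 over 1657 bases at 0.0441 to 2.03.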

How the data were processed

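Bulk RNA-seq of 34 mouse samples was analysed from 1 table of gene values. The deposited signal values were TMM-normalised by the authors, per the name of the deposited table; how they were scaled or offset before that was not stated. The submitters' processing notes name STAR 2.7.8a, Partek and the builds mm39 and mm10 without roles. No deposited value was 0, and low values (20 steps or fewer) were whole multiples of the lowest value, within 0.1 step, in 88.9% to 94.5% of cases per library, so the values were not treated as counts. Column totals were 879095 to 1503681.

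Values were tested as log2(signal + 0.962), the pseudocount being 1 ppm of the median column total. Genes at or above it in at least 2 samples were kept (19264 of 23331). limma 3.58.1 in R 4.3.3 was fitted with 17 group means over all 34 samples (17 residual degrees of freedom, trended and robust empirical Bayes), with Benjamini-Hochberg adjustment over all genes kept. Calls needed both an adjusted p below 0.05 and a change of 1 or more on the log2 scale, up or down; the script was tested on simulated data. Samples were grouped by their labels, and the columns headed D9 hold the samples titled P9. Counting intervals (95%) treat a step as 1 read. If 1 step stands for no reads, as taken above, each library is counted 1 read too high. Ratios and intervals of genes at few steps do not allow for this.

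The members and the gene lists were chosen with earlier results of these data known. Named genes are the members in every comparison, up to 4 called genes of a list with the largest change, and the 3 genes closest in pattern to each member among genes with a group mean of at least 10 times the pseudocount; some genes that these rules select are not reported here. Alternatives were other pseudocounts, no filter, 2 other scalings, default empirical Bayes, a replicate block, sets r1 or r2 alone and leaving out each library. Promoter windows are from RefSeq.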

Additional observations from a re-analysis of the deposited data

Results flagged for a closer look

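The change from D3 to D19 differed between assembloids in medium v2 and explants in medium v1 for 5 of the 7 members. The same test called 9.52% of all genes. Each of the 5 is singled out because the test of the difference itself passed both thresholds. The difference of log2 changes, assembloid minus explant, was 3.41 for Tfap2b, 2.64 for Hnf4a, 1.81 for Irx3, 1.35 for Irx2 and -1.85 for Hnf4g. It shares its D3 libraries with the D3 comparison. There assembloids were lower than v1 explants in Tfap2b (-2.51), Hnf4a (-2.90), Irx3 (-2.49) and Irx2 (-2.19). At D19 the assembloid means of Hnf4a, Irx3 and Irx2 were still under those of v1 explants, and those of Tfap2b were above. With 1 library left out, the difference of changes ranged from 1.50 to 3.78 for Hnf4a, 1.23 to 2.40 for Irx3 and 0.79 to 1.91 for Irx2. Tfap2b was the 1 member called in opposite directions in the 2 cultures. Culture and medium cannot be told apart here.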

How the results depend on the processing

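Of 77 calls of a member, 58 held whichever single library of the compared groups was left out, and no called value changed sign under any alternative. Of 2247 alternative values, 59 changed sign in members that were not called, the largest of them 1.13 in size before. No filter on low values, default empirical Bayes and the replicate block each left all 189 member values and all 27 counts of called members on the same side of the thresholds. The replicate block gave 7 of 7 members called for E15.5 against E12.5, for example; over 30 pairs of groups the deviations of same-numbered samples correlated between -0.205 and 0.205, with 5 pairs over 0.1, so the numbers were not taken to pair samples.

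The count of called members moved by more than 1.5 times, or to or from 0, under the following alternatives, and the cause was not tested; 14 other counts moved by 1 member, within 1.5 times (6 with the smaller and 5 with the larger pseudocount, 1 with quantile normalization and 2 with set r1 alone). With a 4 times smaller pseudocount it was 0 for P45 against P9, 0 for P45 against P0, 1 for D7 v1 against FBS explants, 1 for D19 assembloids against D19 v2 explants and 3 for D19 v2 explants against P0. With a 4 times larger pseudocount it was 0 for D13 against D7 in v1, 0 for D19 v2 against v1, 1 for D13 assembloids against explants and 2 for the difference of D19 minus D3 changes. With equal totals it was 2 for P9 against P0 and 5 for P45 against P9. With quantile normalization it was 2 for P9 against P0, 0 for D13 against D7 in v1 and 1 for D19 v2 against v1.

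Leaving out 1 library, the lone sample left in its group is assumed to vary like the other groups. The count then ranged from 1 to 2 in 4 comparisons. It was 2 without P9 replicate 1 for P9 against P0, without P9 replicate 1 or P45 replicate 2 for P45 against P9, and without P45 replicate 2 for P45 against P0, and it was 1 without D13 explant replicate 2 or D13 assembloid replicate 1 for D13 assembloids against explants. It ranged from 0 to 1 for D13 against D7 in v1 (0 without D13 replicate 2) and for D7 assembloids against explants (1 without D7 explant replicate 2 or D7 assembloid replicate 1), and from 0 to 2 for D19 v2 against v1 (0 without replicate 2 of either group). It ranged from 1 (without D3 v1 replicate 1) to 4 (without D3 v1 replicate 2) for D7 against D3 in v1, and from 2 (without D13 v1 replicate 1 or D19 v1 replicate 2) to 4 for D19 against D13 in v1. It ranged from 3 (without D19 v2 replicate 1) to 5 for D19 v2 explants against P0. For the difference of changes it ranged from 2 (without D3 v1 replicate 1) to 6 (without D3 v1 replicate 2), with 3 without D3 assembloid replicate 1. Low values limit Hnf4g most, at 1 or 2 steps in D19 assembloids.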
